A study of Danio rerio with 4 samples.

Results

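Splicing genes were described in Gata1+ cells of zebrafish embryos: the genes whose symbol in the deposited files begins with snrp, sf3, srsf, sfrs, hnrn, prpf, u2af, or lsm and a digit. The rule uses names and no measured value, and it takes 68 of 14417 genes. Its written form ends in a dot, taken here as the end of the sentence; as part of the pattern, the dot would leave out lsm1, lsm4, lsm6 and lsm7. They fall into 8 role groups, which are 7 core Sm proteins, 4 U1 snRNP proteins, 9 U2 snRNP and SF3 subunits, 3 U2AF subunits, 9 proteins of the U4/U6.U5 particle and other PRPF proteins, 8 Lsm proteins, 13 SR proteins and 15 hnRNPs.

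All 4 libraries come from a gata1:GFP strain, in which the promoter of gata1, a gene active in red blood cell precursors, drives green fluorescent protein, and from cells sorted as Gata1+. The groups were foxo3b MO at 48 hours post fertilization (hpf), control at 48 hpf, foxo3b MO at 24 hpf and control at 24 hpf, with 1 library each. A morpholino (MO) is an antisense oligonucleotide that blocks translation or splicing of its target, here foxo3b, a FOXO transcription factor gene. Control embryos received a standard MO, so that every group had been injected at the 1-cell stage. How many embryos went into a library is not given in the labels.

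Each group is a single library, which leaves spread unmeasured. No comparison below was tested, and each describes these libraries. Values are FPKM, the deposited fragment number normalised to transcript length and library size. A log2 fold is log2((FPKM + 1)/(FPKM + 1)), which understates differences of weakly expressed genes. Genes past 2-fold are counted among the 11971 genes that average 1 FPKM or more. Of the 68 splicing genes 67 reach that floor. The exception was lsm14b, an Lsm-domain gene, which was listed at 0 in foxo3b MO at 48 hpf and stood at 0.158 to 0.207 FPKM in the other libraries.

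Splicing removes introns from pre-messenger RNA. The spliceosome is built from small nuclear ribonucleoproteins (snRNPs), each a small nuclear RNA with a ring of Sm or Lsm proteins and proteins of its own. U1 binds the 5′ splice site, U2AF and U2 with SF3a and SF3b bind the 3′ splice site and branch point, and the U4/U6.U5 tri-snRNP joins before catalysis. SR proteins mostly favour the use of nearby exons, and hnRNPs, which coat nascent RNA, often oppose it. These genes are used in nearly every cell, and maturing red cells condense and silence most of their chromatin.

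The libraries held much RNA of cells other than blood. The 8 epidermal markers summed to 13364 FPKM in foxo3b MO and 11767 FPKM in control at 48 hpf, and to 13869.5 FPKM in foxo3b MO and 11592 FPKM in control at 24 hpf. Most of each sum was krt4, while krt5 and tp63 were more than 2-fold lower at 48 hpf in foxo3b MO and in control. The 11 red cell markers summed to 9852 FPKM in foxo3b MO and 25879 FPKM in control at 48 hpf, and to 3708 FPKM in foxo3b MO and 15407.5 FPKM in control at 24 hpf. Most of each red cell sum was globin genes (hbae and hbbe). Some red cell markers went against the sum with stage. Log2 folds of 48 hpf over 24 hpf were -0.45 in foxo3b MO and -1.40 in control for gata1a. They were -0.45 in foxo3b MO and -0.22 in control for tal1. The globin gene hbbe3 had 0.28 in foxo3b MO and -1.96 in control. No marker of either list was at 0. The mRNA of foxo3b stood at 50.3 FPKM in foxo3b MO and 38.1 FPKM in control at 48 hpf, against 46.5 FPKM in foxo3b MO and 6.40 FPKM in control at 24 hpf, so it was not lower in foxo3b MO. A translation-blocking MO cannot be checked by mRNA, and the labels do not give the binding site. Steps of single reads in low FPKM values gave depths relative to control at 24 hpf. The most common lay near 0.248 in foxo3b MO at 48 hpf, 0.717 in control at 48 hpf and 0.543 in foxo3b MO at 24 hpf. A further step was looked for only near double each, and was most common there at 0.493, 1.42 and 1.09, in the same order. Other ratios were not looked at, so the uncertainty of relative depth is not bounded, and absolute depth is unknown.

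Splicing genes were abundant in every library. Their median level stood at 84.6 FPKM in foxo3b MO and 87.1 FPKM in control at 48 hpf, and at 147 FPKM in foxo3b MO and 132 FPKM in control at 24 hpf. Between 63 and 65 of the 68 lay above the median gene of their library. The genes together summed to 9530 FPKM in foxo3b MO and 8567 FPKM in control at 48 hpf, against 13865 FPKM in foxo3b MO and 15907 FPKM in control at 24 hpf. The sum was lower at 48 hpf in foxo3b MO as well as in control. As a share of all FPKM it was 0.633% in foxo3b MO and 0.357% in control at 48 hpf, and 0.879% in foxo3b MO and 0.695% in control at 24 hpf.

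By mean FPKM the most abundant was hnrnpa0l, an hnRNP gene related to hnRNP A0, at 900 FPKM, followed by the Sm genes snrpf at 675 FPKM and snrpe at 641 FPKM. At the other end of the 67 hnrnpa3 averaged 3.54 FPKM and srsf7 3.46 FPKM. The weakest, srsf7, is now named srsf7b, and its other copy srsf7a is listed in the files as zgc:77155 at 62.5 to 195 FPKM.

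**Figure D1:**
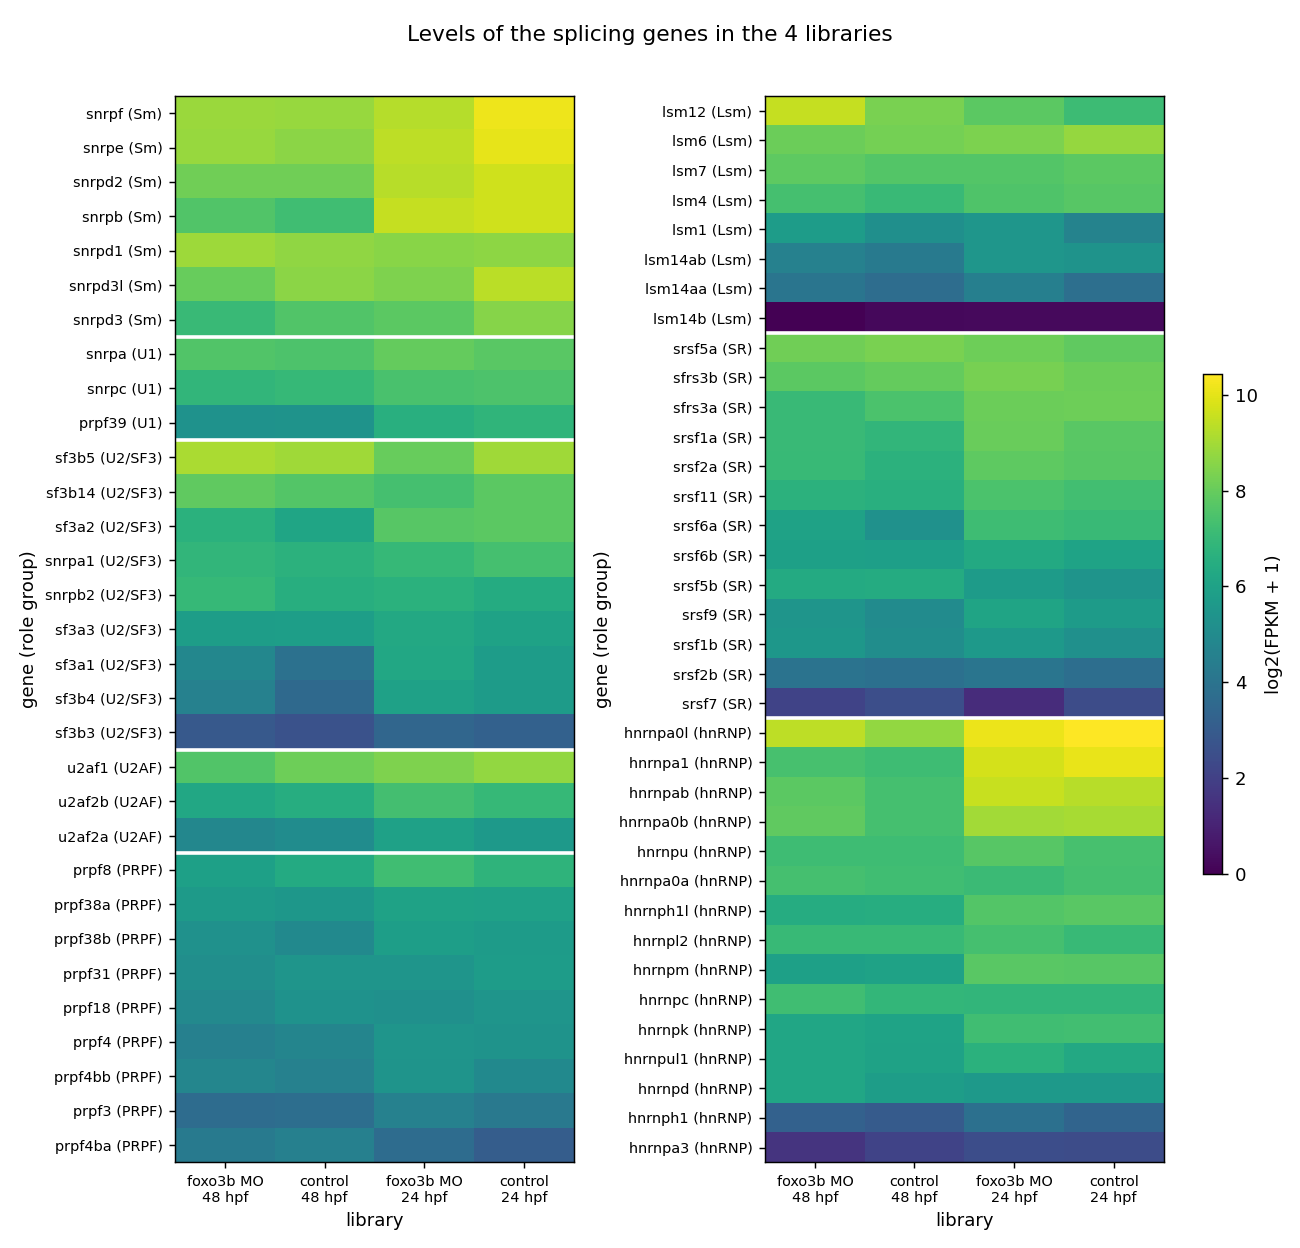
Level of 67 of the 68 splicing genes in each library, as log2(FPKM + 1) on the colour scale, with genes in rows by role group and libraries in columns. By mean FPKM the core Sm and hnRNP rows hold the most abundant genes. At 48 hpf the highest gene is lsm12 in foxo3b MO and sf3b5 in control. The genes hnrnpa1 and snrpb differ most between the 48 hpf and 24 hpf columns, and lsm14b is near 0 throughout.

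The first comparison asks how these genes differed between stages, 48 hpf against 24 hpf. In foxo3b MO 18 of 67 splicing genes were 2-fold or more lower at 48 hpf and 2 were as much higher, and in control 19 were lower and 3 higher. Over all genes 11.5% were that much lower and 15.7% higher in foxo3b MO, and 8.75% were lower and 21.0% higher in control. The splicing genes had a median log2 fold of -0.57 in foxo3b MO and -0.52 in control, beside medians of -0.03 in foxo3b MO and 0.18 in control over all genes. Below 0 lay 53 of the 67 in foxo3b MO and 54 in control, and of all 11971 genes 6122 in foxo3b MO and 4929 in control. Median-ratio scaling moved the median of all genes in control by -0.22, and then 22 splicing genes were lower and 1 higher in control, beside 13.1% lower and 16.9% higher over all genes.

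These stage comparisons share no library. Of the genes past 2-fold lower at 48 hpf 14 were the same in both, which is 77.8% of the 18 in foxo3b MO and 73.7% of the 19 in control. Over all genes the overlap was 673, which is 48.9% of 1376 in foxo3b MO and 64.3% of 1047 in control. Splicing genes with a log2 fold below 0 in both comparisons numbered 51 of 67, and 11 lay above 0 in both. Of all 11971 genes 4212 lay below 0 in both and 5123 above 0 in both. The shared genes include 6 hnRNPs (hnrnpa0b, hnrnpa1, hnrnpab, hnrnph1l, hnrnpk and hnrnpm), 3 SF3 subunits (sf3a1, sf3a2 and sf3b4), snrpb and snrpd2 of the Sm ring, prpf39 and the SR gene srsf6a.

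**Figure D2:**
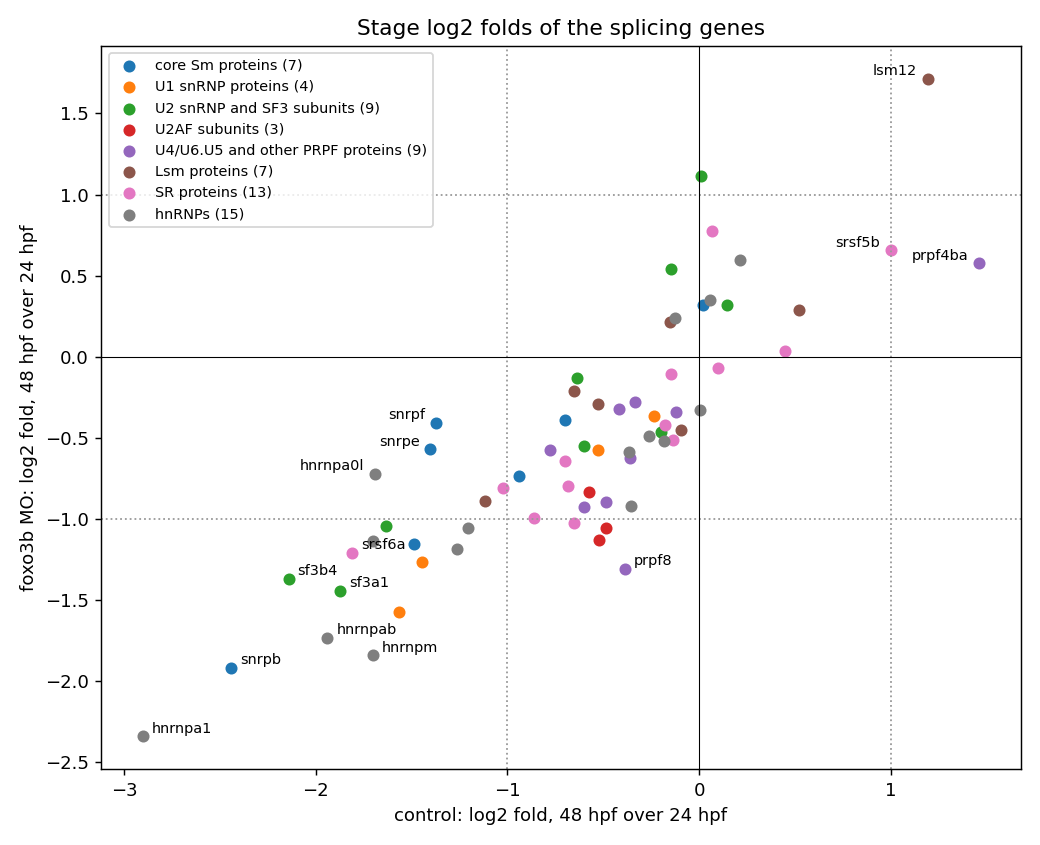
Log2 fold of 48 hpf over 24 hpf in foxo3b MO (vertical) against that in control (horizontal), 1 point per splicing gene that passes the floor, coloured by role group, with dotted lines at 2-fold. Of the 67 points 51 lie at lower left, below 0 in both, with hnrnpa1 and snrpb at the far end. At upper right 11 lie above 0 in both, and of these lsm12 is the one past 2-fold in both. Of all 11971 genes, not drawn, 4212 lie below 0 in both and 5123 above 0 in both.

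Bulk RNA of sorted cells cannot tell fewer cells of a type from less RNA per cell. Markers of other cell types also differed with stage. The 10 neural markers summed to 649 FPKM in foxo3b MO and 758 FPKM in control at 48 hpf, against 367 FPKM in foxo3b MO and 437 FPKM in control at 24 hpf. The 8 muscle markers summed to 23118 FPKM in foxo3b MO and 28925 FPKM in control at 48 hpf, against 5742 FPKM in foxo3b MO and 6792 FPKM in control at 24 hpf. Sums of the 4 hatching gland markers were lower at 48 hpf, at 5064 FPKM in foxo3b MO and 2269 FPKM in control, against 8649 FPKM in foxo3b MO and 7799 FPKM in control at 24 hpf. Lens markers summed to 1631 FPKM in foxo3b MO and 2163 FPKM in control at 48 hpf, against 63.1 FPKM in foxo3b MO and 155 FPKM in control at 24 hpf. The neural list had a median stage log2 fold of 1.03 in foxo3b MO and 0.93 in control. That of muscle was 0.96 in foxo3b MO and 0.83 in control. Some genes went against the sum of their list. Lower at 48 hpf in both comparisons were sox2, stmn2b, myod1 and myog, and in control also tubb5 and actc1b. The hatching gland marker cd63 was higher in both. None of these markers was at 0 in any library, and their part in the stage difference was not tested. Of 5 equal bins of all genes by level, the most abundant holds 47 of the splicing genes. In it 12.7% of all genes were past 2-fold lower in foxo3b MO and 14.5% in control, beside 29.8% of the 47 in foxo3b MO and 31.9% in control. Of its genes 691 also lie in the narrowest of 5 bins by locus width. Of these 691 genes 13.5% were past 2-fold lower in foxo3b MO and 17.8% in control. Among the 19 splicing genes there the shares were 21.1% in foxo3b MO and 36.8% in control.

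The Sm ring, the core that every spliceosomal snRNP but U6 shares, held snrpb (SmB, on chromosome 6 of Zv9 at 57428410 to 57435485) with the lowest log2 folds of its group. It stood at 195 FPKM in foxo3b MO and 151 FPKM in control at 48 hpf, and at 738 FPKM in foxo3b MO and 825 FPKM in control at 24 hpf. The log2 folds were -1.92 in foxo3b MO and -2.44 in control. For snrpd2, another ring gene, the values were 287 FPKM in foxo3b MO and 290 FPKM in control at 48 hpf, against 640 FPKM in foxo3b MO and 815 FPKM in control at 24 hpf. The most abundant ring gene, snrpf, on an unplaced Zv9 scaffold, stood at 467 FPKM in foxo3b MO and 448 FPKM in control at 48 hpf, against 620 FPKM in foxo3b MO and 1162 FPKM in control at 24 hpf. Its stage log2 fold was -0.41 in foxo3b MO and -1.37 in control, and that of snrpe was -0.57 in foxo3b MO and -1.40 in control. The control 24 hpf library was the highest of the 4 for both genes.

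The copies snrpd3 and snrpd3l encode the same ring position, so that reads may have been split between them. Their stage log2 folds were -0.74 (snrpd3) and -0.39 (snrpd3l) in foxo3b MO, and -0.94 (snrpd3) and -0.70 (snrpd3l) in control. The ring gene that lay above 0 was snrpd1, at 0.32 in foxo3b MO and 0.02 in control, whose row spans a locus shared by 9 genes, which makes its value uncertain. The ring gene snrpg, which the name rule misses, is listed as zgc:103688 and had log2 folds of -0.82 in foxo3b MO and -1.21 in control.

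Of the U1 genes, snrpa and snrpc, which encode U1-specific proteins, differed by less than 2-fold between stages. The U1-associated gene prpf39 differed more. Levels of prpf39 were 38.4 FPKM in foxo3b MO and 40.6 FPKM in control at 48 hpf, against 93.7 FPKM in foxo3b MO and 112 FPKM in control at 24 hpf. Its log2 folds were -1.27 in foxo3b MO and -1.45 in control.

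Among U2 and SF3 subunits, which recognise the branch point, the genes split. Lowest in control was sf3b4, an SF3b subunit that contacts RNA upstream of the branch point, at 23.0 FPKM in foxo3b MO and 11.004 FPKM in control at 48 hpf, against 61.1 FPKM in foxo3b MO and 52.0 FPKM in control at 24 hpf. Its log2 folds were -1.37 in foxo3b MO and -2.14 in control. Also past 2-fold lower were the SF3a genes sf3a1, with -1.44 in foxo3b MO and -1.87 in control, and sf3a2, with -1.04 in foxo3b MO and -1.63 in control. The remaining SF3a gene, sf3a3, had -0.46 in foxo3b MO and -0.20 in control.

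The small SF3b subunit gene sf3b5 stood in foxo3b MO at 557 FPKM at 48 hpf and 256 FPKM at 24 hpf. Its log2 fold there was 1.12. In control it stood at 495 FPKM at 48 hpf and 491 FPKM at 24 hpf. A further SF3b gene, sf3b14 (now sf3b6), had log2 folds of 0.54 in foxo3b MO and -0.14 in control, and the U2 gene snrpb2 had 0.32 in foxo3b MO and 0.15 in control. The row of sf3b3 covers a locus of 4 genes, with log2 folds of -0.55 in foxo3b MO and -0.60 in control, and its value is uncertain.

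U2AF, which reads the polypyrimidine tract and the AG at the 3′ splice site, had log2 folds below 0 in all of its subunit genes. The large-subunit copies were past 2-fold lower in foxo3b MO, at -1.13 (u2af2a) and -1.05 (u2af2b), and had -0.52 (u2af2a) and -0.49 (u2af2b) in control. The small-subunit gene u2af1 stood at 191 FPKM in foxo3b MO and 283 FPKM in control at 48 hpf, against 342 FPKM in foxo3b MO and 421 FPKM in control at 24 hpf.

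The group of U4/U6.U5 and other PRPF proteins, called the PRPF group below, is not limited to the tri-snRNP. In it prpf8, the scaffold of the catalytic centre, stood at 59.1 FPKM in foxo3b MO and 82.5 FPKM in control at 48 hpf, against 148 FPKM in foxo3b MO and 108 FPKM in control at 24 hpf. Its stage log2 folds were -1.31 in foxo3b MO and -0.39 in control. Lowest of the group in control was prpf38b, with -0.57 in foxo3b MO and -0.78 in control. The U4/U6 gene prpf31 had -0.28 in foxo3b MO and -0.33 in control. The gene prpf4ba, a copy of the gene for the splicing kinase PRP4, was the one above 0 in this group. It stood at 18.2 FPKM in foxo3b MO and 22.4 FPKM in control at 48 hpf, against 11.9 FPKM in foxo3b MO and 7.49 FPKM in control at 24 hpf, with log2 folds of 0.58 in foxo3b MO and 1.46 in control. Its other copy, prpf4bb, had log2 folds of -0.62 in foxo3b MO and -0.36 in control.

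Among Lsm genes, those of the rings that bind U6 RNA or, with lsm1, decaying mRNA had log2 folds between -0.29 (lsm6) and 0.29 (lsm1) in foxo3b MO and between -0.65 (lsm4) and 0.52 (lsm1) in control. The P-body gene lsm14ab was past 2-fold lower in control, at -1.12, and stood at -0.89 in foxo3b MO. The gene lsm12, an Lsm-domain gene outside those rings, had the highest stage log2 fold of the 67 genes in foxo3b MO, at 1.71, and 1.19 in control (0.95 on median-ratio scaling). It stood at 737 FPKM in foxo3b MO and 325 FPKM in control at 48 hpf, against 224 FPKM in foxo3b MO and 141 FPKM in control at 24 hpf, in a row that covers a locus of 2 genes. The other copy, lsm12a, listed as zgc:85812, had log2 folds of 0.17 in foxo3b MO and 0.46 in control.

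In the SR group 2 of 13 genes were past 2-fold lower at 48 hpf in each comparison and 1 was higher in control. The 15.4% lower in each was near the 11.5% in foxo3b MO and 8.75% in control of all genes, and the 7.7% higher in control was under their 21.0%. The gene srsf6a, lower in both, stood at 63.0 FPKM in foxo3b MO and 37.3 FPKM in control at 48 hpf, against 147 FPKM in foxo3b MO and 133 FPKM in control at 24 hpf, but its locus is shared by 14 genes. The other gene was sfrs3a (srsf3a) in foxo3b MO, at -1.02, and srsf2a in control, at -1.02. The SR gene srsf5b was higher at 48 hpf, at 82.5 FPKM in foxo3b MO and 84.1 FPKM in control, against 52.0 FPKM in foxo3b MO and 41.5 FPKM in control at 24 hpf. Its log2 folds were 0.66 in foxo3b MO and 1.002 in control, the second of which fell short of 2-fold with a pseudocount of 5 FPKM and on other scalings. Its copy srsf5a, the most abundant of the group, had 0.04 in foxo3b MO and 0.45 in control.

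An hnRNP gene, hnrnpa1, had the lowest stage log2 fold of all splicing genes in each comparison. The hnRNP medians were -0.72 in foxo3b MO and -0.37 in control, which were not the lowest of the role groups. Those were U2AF in foxo3b MO, at -1.05, and the core Sm genes in control, at -1.37. The gene hnrnpa1 (now hnrnpa1b, on chromosome 23 at 36358087 to 36361160) encodes a shuttling protein that binds splicing silencers. It stood at 169 FPKM in foxo3b MO and 146 FPKM in control at 48 hpf, and at 858 FPKM in foxo3b MO and 1099 FPKM in control at 24 hpf. The log2 folds were -2.34 in foxo3b MO and -2.90 in control.

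The gene hnrnpab stood at 224 FPKM in foxo3b MO and 163 FPKM in control at 48 hpf, against 748 FPKM in foxo3b MO and 629 FPKM in control at 24 hpf. The gene hnrnpm, which binds GU-rich RNA, stood at 59.8 FPKM in foxo3b MO and 63.8 FPKM in control at 48 hpf, against 217 FPKM in foxo3b MO and 210 FPKM in control at 24 hpf. Their log2 folds were -1.73 (hnrnpab) and -1.84 (hnrnpm) in foxo3b MO, and -1.94 (hnrnpab) and -1.70 (hnrnpm) in control. The gene hnrnpab is now hnrnpaba, and its other copy hnrnpabb is listed as zgc:77052. That copy was not past 2-fold, with -0.62 in foxo3b MO and -0.75 in control. Smaller differences past 2-fold were those of hnrnpk, which binds C-rich RNA, with -1.06 in foxo3b MO and -1.20 in control, and of hnrnph1l, with -1.18 in foxo3b MO and -1.26 in control.

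Near each other on chromosome 14 lie hnrnpa0b (40342182 to 40343888) and hnrnpa0l (40346897 to 40347384), which may share reads. The log2 folds of hnrnpa0b were -1.13 in foxo3b MO and -1.70 in control, and those of hnrnpa0l were -0.72 in foxo3b MO and -1.69 in control. By contrast 3 hnRNP genes lay above 0 in foxo3b MO, namely hnrnpd (0.59), hnrnpc (0.35) and hnrnpa0a (0.24). The scaffold gene hnrnpu stood at 144 FPKM in foxo3b MO and 147 FPKM in control at 48 hpf, against 207 FPKM in foxo3b MO and 167 FPKM in control at 24 hpf. In the hnRNP group 6 of 15 genes were past 2-fold lower in foxo3b MO and 7 of 15 in control. This is 40% in foxo3b MO and 46.7% in control, beside 11.5% in foxo3b MO and 8.75% in control over all genes.

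**Figure D3:**
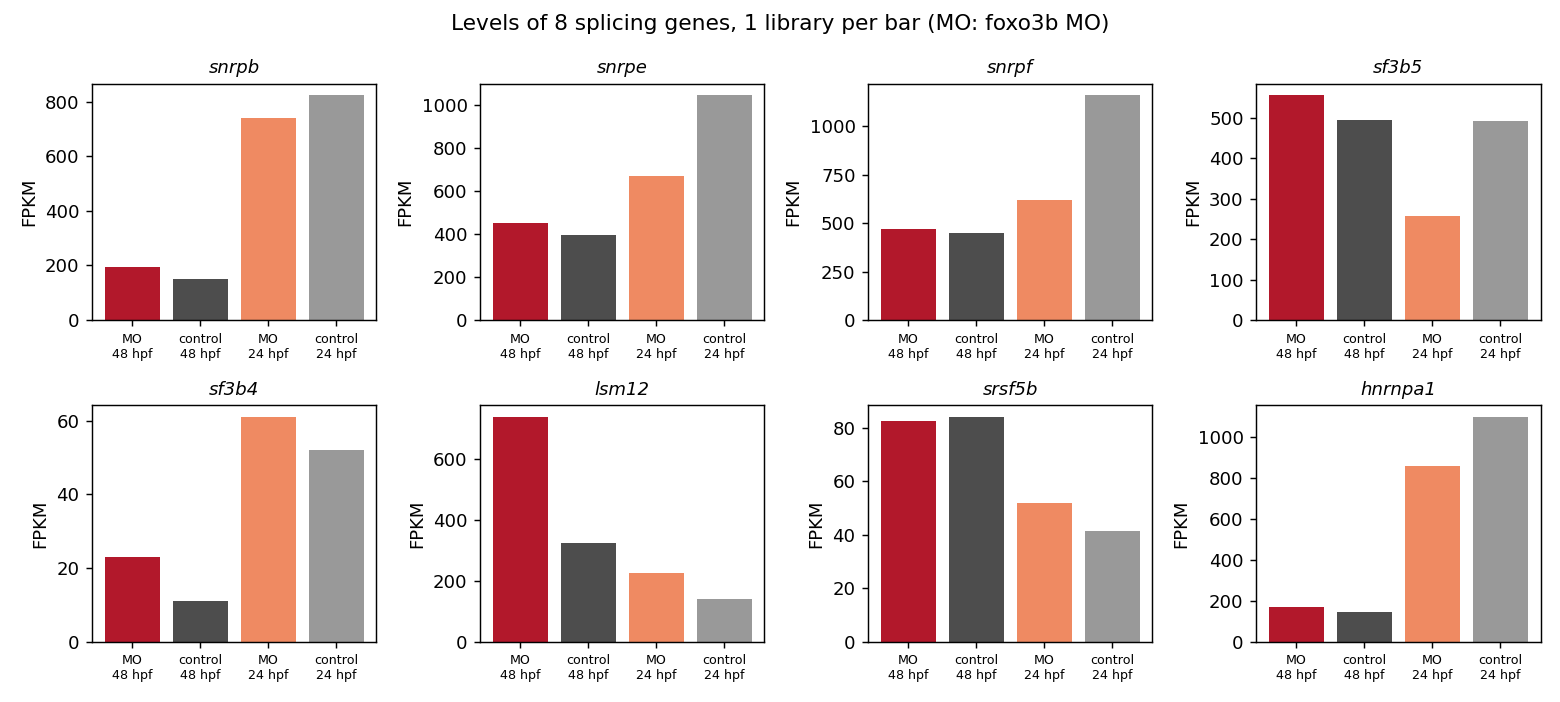
FPKM of 8 splicing genes in the 4 libraries, 1 bar per library and each panel with its own axis from 0. Bars of snrpb, sf3b4 and hnrnpa1 are shorter in both 48 hpf libraries, those of lsm12 and srsf5b are taller, and sf3b5 is lowest in foxo3b MO at 24 hpf.

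Genes of splicing that the name rule misses were set beside these. Current symbols that begin as the rule asks belong to 13 more genes of the files, and 6 of them were past 2-fold lower at 48 hpf in foxo3b MO and 8 in control, with medians of -0.82 in foxo3b MO and -1.11 in control. As shares this is 46.2% in foxo3b MO and 61.5% in control, beside 11.5% in foxo3b MO and 8.75% in control over all genes. They include prp19 (prpf19), the ubiquitin ligase of the activating complex, at 63.7 FPKM in foxo3b MO and 52.6 FPKM in control at 48 hpf, against 181 FPKM in foxo3b MO and 149 FPKM in control at 24 hpf. The others lower in both comparisons are zgc:65772 (srsf10b), zgc:66127 (hnrnpa1a, at a locus of 7 genes), zgc:77155 (srsf7a), zgc:136773 (sf3b2) and c20orf14 (prpf6), with hnrpr (hnrnpr) and zgc:103688 (snrpg) lower in control. Of 5 snrnp genes snrnp70, which binds U1 RNA, was past 2-fold lower in foxo3b MO (-1.15) and in control (-1.44).

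Of 23 measured genes of the Prp19 complex and the catalytic steps 6 were past 2-fold lower at 48 hpf in foxo3b MO and 6 in control, and none higher, with medians of -0.53 in foxo3b MO and -0.43 in control. The 26.1% lower in each stands beside 11.5% in foxo3b MO and 8.75% in control over all genes. The cyclophilin gene ppie stood at 29.5 FPKM in foxo3b MO and 30.7 FPKM in control at 48 hpf, against 92.8 FPKM in foxo3b MO and 113 FPKM in control at 24 hpf. Also lower in both were aqr, crnkl1, dhx15 and dhx16, with ctnnbl1 lower in foxo3b MO and ccdc12 in control, and the most abundant, bud31, was not past 2-fold. Of 26 genes of tri-snRNP and U2 recruitment outside the prefixes 10 were lower in foxo3b MO and 7 in control, with medians of -0.71 in foxo3b MO and -0.60 in control. As shares this is 38.5% in foxo3b MO and 26.9% in control, beside the same 11.5% and 8.75% of all genes. The lowest was ddx46, the helicase that lets U2 bind the branch point, at 6.34 FPKM in foxo3b MO and 5.33 FPKM in control at 48 hpf, against 42.0 FPKM in foxo3b MO and 33.7 FPKM in control at 24 hpf. Also lower in both were ddx39b, cherp, sart3 and tcerg1a. In foxo3b MO puf60a, eftud2, smu1, nhp2l1b and rbm5 were lower besides, and in control puf60b and dnajc8. The most abundant, phf5a, an SF3b component, had log2 folds of -0.44 in foxo3b MO and -0.56 in control.

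Of 21 genes of the exon junction complex and export 6 were lower in each comparison and 1 higher. As shares 28.6% were lower and 4.8% higher in each. Over all genes 11.5% were lower and 15.7% higher in foxo3b MO, and 8.75% lower and 21.0% higher in control. The export adaptor gene alyref stood at 128 FPKM in foxo3b MO and 80.5 FPKM in control at 48 hpf, against 391 FPKM in foxo3b MO and 388 FPKM in control at 24 hpf. Also lower in both were thoc5, rnps1 and casc3, with smg1 and srrm1 lower in foxo3b MO and pnn and acin1a in control. The gene higher in both was upf3a, of nonsense-mediated decay, with log2 folds of 2.17 in foxo3b MO and 2.31 in control, and the most abundant, rbm8a, had -0.01 in foxo3b MO and -0.97 in control. Among 8 genes of Sm protein assembly smn1, the gene for the survival of motor neuron protein, passed 2-fold, at -1.22 in foxo3b MO, beside -0.65 in control, and the most abundant, wdr77, had -0.58 in foxo3b MO and -0.89 in control. The 12.5% of this list lower in foxo3b MO was near the 11.5% of all genes. Of 5 genes for enzymes and import of SR proteins ppm1g and srpk1a were past 2-fold lower in foxo3b MO and ppm1g in control. This is 40% in foxo3b MO and 20% in control, of few genes.

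Of 59 other RNA-binding regulators 13 were lower and 6 higher at 48 hpf in foxo3b MO, and 7 were lower and 11 higher in control. As shares this is 22.0% lower and 10.2% higher in foxo3b MO, and 11.9% lower and 18.6% higher in control, beside 11.5% lower and 15.7% higher in foxo3b MO and 8.75% lower and 21.0% higher in control over all genes, so that the control shares were near those of all genes. Those higher in both comparisons are celf4, elavl4, nova1, rbfox1, pcbp3 and mbnl1. The gene nova1, known in mammals as a neuronal splicing regulator, stood at 24.8 FPKM in foxo3b MO and 33.9 FPKM in control at 48 hpf, against 9.01 FPKM in foxo3b MO and 7.07 FPKM in control at 24 hpf. The summed neural markers given above, among them elavl3 and elavl4 of this list, were higher at 48 hpf, and their part here was not tested. Lower in both were khsrp, ewsr1b, rbfox1l, rbm4.2 and rbm4.3. The most abundant was cirbp, a cold-inducible RNA-binding protein gene, with log2 folds of 0.80 in foxo3b MO and 0.48 in control.

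**Figure D4:**
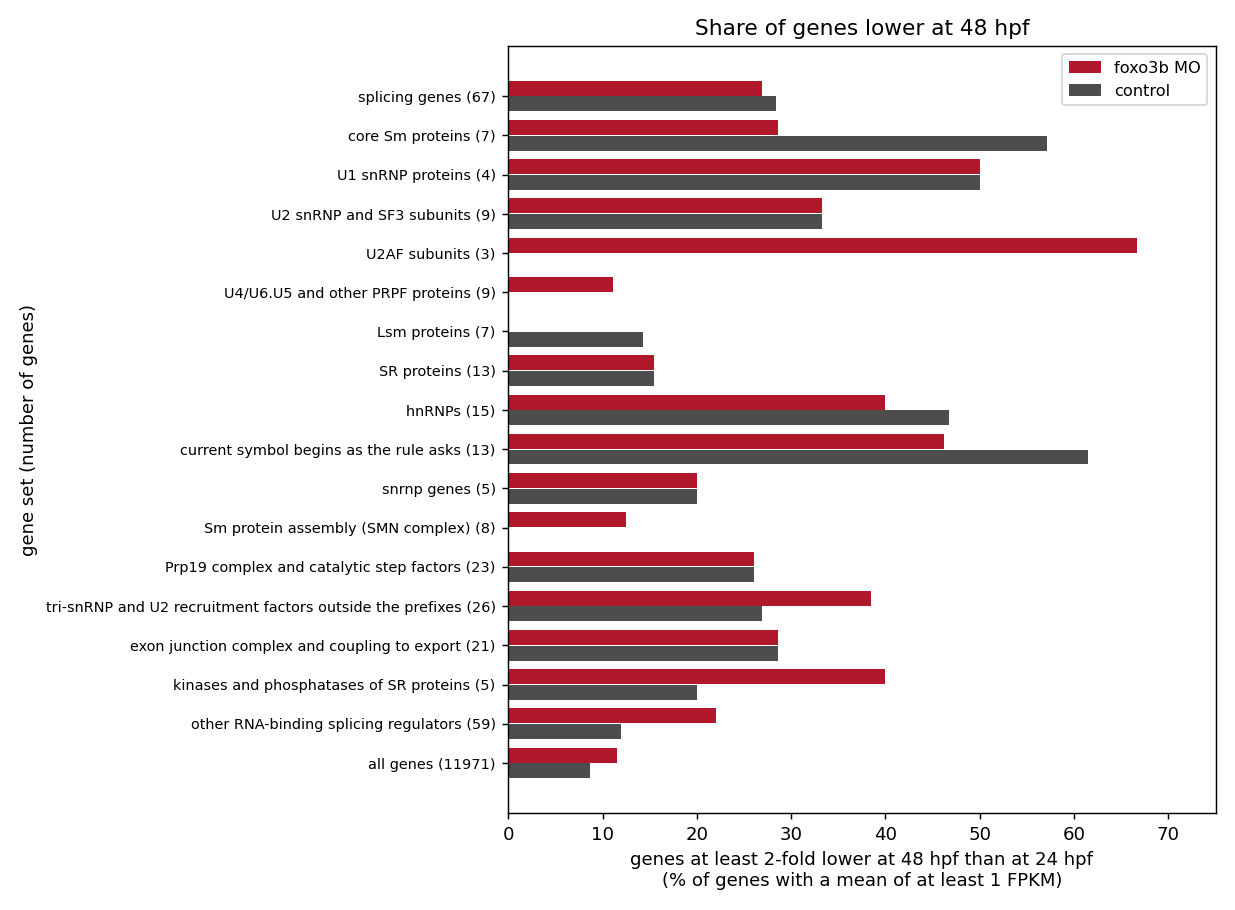
Share of genes past 2-fold lower at 48 hpf than at 24 hpf, in foxo3b MO (upper bar) and control (lower bar), for the splicing genes, their role groups, the other splicing lists and all genes, with the number of genes that pass the floor in parentheses. The splicing genes stand at 26.9% in foxo3b MO and 28.4% in control, all genes at 11.5% in foxo3b MO and 8.75% in control, and groups of few genes move in large steps.

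The second comparison asks how the splicing genes differed between foxo3b MO and control within a stage. At 48 hpf 2 of 67 genes were 2-fold or more higher in foxo3b MO and none lower, where over all genes 1.92% were higher and 3.67% lower. At 24 hpf none was higher and 1 was lower, where over all genes 3.12% were higher and 1.94% lower. The median log2 fold of the splicing genes was 0.15 at 48 hpf and 0.09 at 24 hpf, beside -0.02 at 48 hpf and 0.19 at 24 hpf over all genes.

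These counts are few and depend on the scale. Equal total FPKM moved the median of all genes by 0.61 at 48 hpf and 0.46 at 24 hpf. On that scale 14 splicing genes were higher at 48 hpf, where 16.7% of all genes were higher, and 5 at 24 hpf, where 19.5% were, with none lower. On median-ratio scaling, which moved the median of all genes by 0.02 at 48 hpf and -0.20 at 24 hpf, the counts were 2 higher at 48 hpf and 4 lower at 24 hpf, where 3.11% of all genes were lower. Marker lists also differed between foxo3b MO and control. Red cell markers had median log2 folds of -0.31 at 48 hpf and -1.23 at 24 hpf, hatching gland markers 1.26 at 48 hpf and 0.38 at 24 hpf, and the 5 lens markers -0.41 at 48 hpf and -1.11 at 24 hpf. The 6 yolk and liver markers had -0.86 at 48 hpf and -0.56 at 24 hpf, and summed to 44505.5 FPKM in foxo3b MO and 192941 FPKM in control at 48 hpf, against 93253 FPKM in foxo3b MO and 130291 FPKM in control at 24 hpf. Most of each sum was fabp1b.1, at 39376 FPKM in foxo3b MO and 187400 FPKM in control at 48 hpf. Above 0 at 48 hpf, unlike the medians of their lists, were gata1a, klfd and slc4a1a of the red cell list, mipa of the lens list and apoeb. Of the yolk and liver markers ttr was at 0 in foxo3b MO at 48 hpf and no other was at 0. Medians of the epidermal, neural and muscle lists lay between -0.29 and 0.30. The part of these lists in the results was not tested.

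The genes past 2-fold at 48 hpf were lsm12 and sf3b4, both described above. For lsm12 the values were 737 FPKM in foxo3b MO and 325 FPKM in control, a log2 fold of 1.18. For sf3b4 they were 23.0 FPKM in foxo3b MO and 11.004 FPKM in control, a log2 fold of 1.002 that lies at the threshold and was 0.81 with a pseudocount of 5 FPKM. The next was sf3a1, at 27.3 FPKM in foxo3b MO and 13.8 FPKM in control, a log2 fold of 0.94. Of the U2 and SF3 genes 8 of 9 were above 0 at this stage, with a median of 0.26, and the other, sf3a3, stood at -0.01. Of SF3b genes that the name rule misses, phf5a had -0.73 and zgc:136773 (sf3b2) 0.80. U2AF genes were below 0, between -0.23 (u2af2a) and -0.56 (u2af1), and so were 6 of 9 genes of the PRPF group, lowest at prpf8 (-0.47). Of all 11971 genes 5779 were above 0 at 48 hpf and 6182 below, and these groups hold few genes. On equal totals the medians of U2AF (0.42) and of the PRPF group (0.41) were above 0 and under the 0.60 of all genes.

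Among SR genes at 48 hpf srsf6a was highest, at 0.74, and sfrs3a lowest, at -0.41. Among hnRNPs hnrnpa0l was highest, at 677 FPKM in foxo3b MO and 427 FPKM in control. The weakly expressed hnrnpa3 was lowest, at 1.93 FPKM in foxo3b MO and 3.24 FPKM in control, in a row that covers 6 genes. The lowest U1 gene was snrpc, at -0.13. The lowest of the 67 splicing genes at 48 hpf was the Sm copy snrpd3l, at 258 FPKM in foxo3b MO and 397 FPKM in control, a log2 fold of -0.62.

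At 24 hpf the gene past 2-fold was srsf7, at 1.53 FPKM in foxo3b MO and 4.36 FPKM in control, whose log2 fold was -1.08 and, with a pseudocount of 5 FPKM, -0.52. Its more abundant copy srsf7a (zgc:77155) stood at 195 FPKM in foxo3b MO and 165 FPKM in control, a log2 fold of 0.24. The core Sm genes were all below 0 at this stage, with a median of -0.64. Of all 11971 genes 3795 were below 0 at 24 hpf and 8161 above. Levels of snrpf were 620 FPKM in foxo3b MO and 1162 FPKM in control, a log2 fold of -0.91. Levels of snrpd3l were 337 FPKM in foxo3b MO and 645 FPKM in control, and those of snrpe 671 FPKM in foxo3b MO and 1047 FPKM in control. Outside the ring the SF3b gene sf3b5 stood at 256 FPKM in foxo3b MO and 491 FPKM in control, a log2 fold of -0.93. The control 24 hpf library is also the base of the stage comparison in control.

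On equal totals the Sm median at 24 hpf stood at -0.10, beside 0.65 for all genes, with snrpb, snrpd1 and snrpd2 above 0, and on median-ratio scaling at -0.87, beside -0.01. Locus width and level went with the log2 fold at 24 hpf. The narrowest of 5 bins by locus width and the most abundant of 5 bins by level share 691 genes, 19 splicing genes among them. Their median log2 fold at 24 hpf was -0.15 over the 19 and -0.22 over the 691. Sm genes are only part of the 19, and the part of width and level in the Sm values was not tested.

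Other role groups at 24 hpf had medians between 0.02 (hnRNPs) and 0.32 (U2AF), beside 0.19 over all genes. SR genes other than srsf7 and sfrs3a (-0.04) lay between 0.12 and 0.36, with a median over the group of 0.23. The highest log2 fold was that of lsm1, a gene of the ring that acts in mRNA decay, at 44.1 FPKM in foxo3b MO and 24.7 FPKM in control (0.81), followed by lsm14aa (0.68) and lsm12 (0.66). In the PRPF group prpf4ba was highest (0.60) and prpf31 lowest (-0.33). The hnRNPs spanned -0.36 (hnrnpa1) to 0.50 (hnrnph1), with hnrnpul1 (0.39) the highest of those above 10 FPKM. Among U1 genes prpf39 was lowest (-0.26), and U2AF held u2af2a at 0.38 and u2af1 at -0.30. None of these reached 2-fold.

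**Figure D5:**
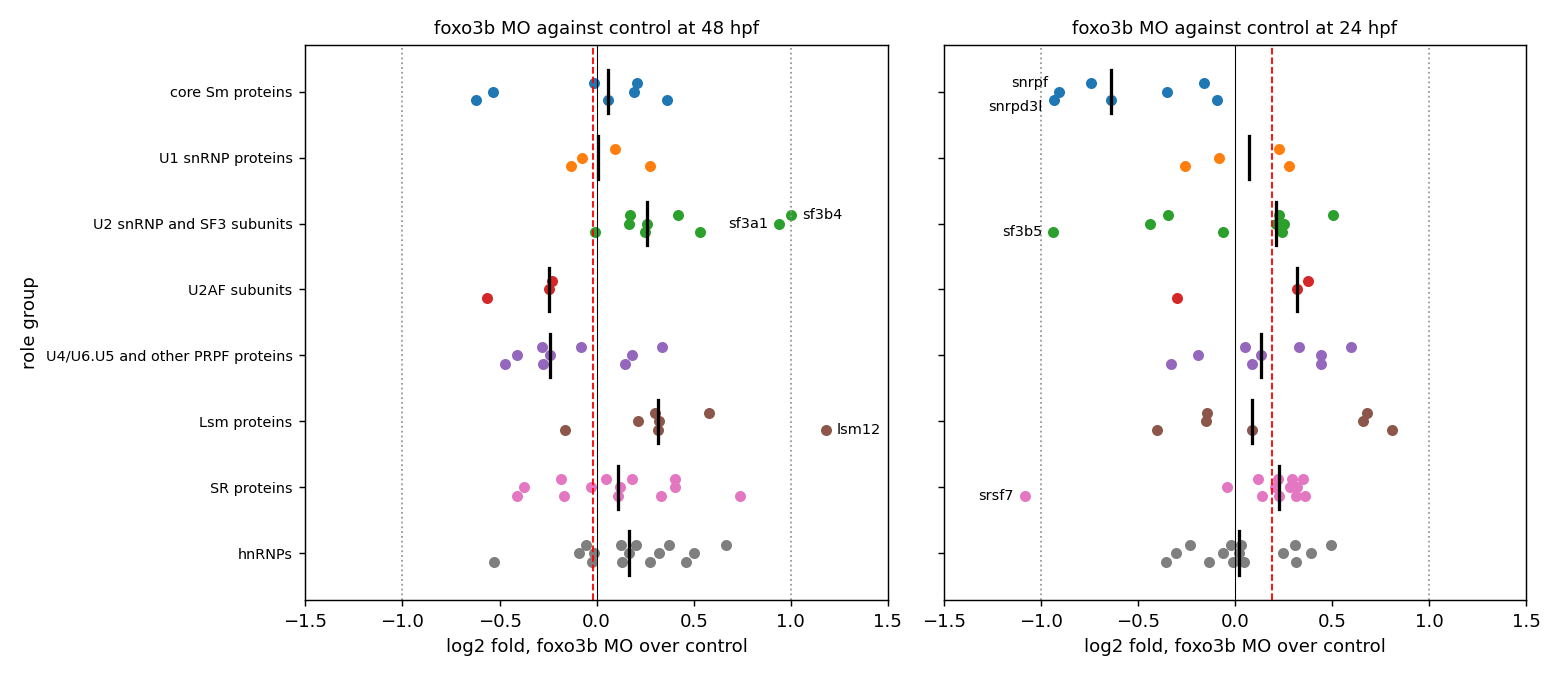
Log2 fold of foxo3b MO over control at 48 hpf (left) and 24 hpf (right), 1 point per splicing gene that passes the floor, by role group. Black bars are group medians, the dashed line is the median of all genes and dotted lines mark 2-fold: the core Sm genes lie left of the dashed line at 24 hpf, with a median of -0.64 (on equal totals -0.10, beside 0.65 for all genes).

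The difference between those log2 folds, 48 hpf minus 24 hpf, had a median of 0.08 over the 67 splicing genes, beside -0.20 over all genes. It uses all 4 libraries, and the same number is the stage log2 fold in foxo3b MO minus that in control. The SF3b gene sf3b5 was past 2-fold higher, at 1.104, and no splicing gene was past 2-fold lower, where 2.95% of all genes were higher and 8.97% lower. Next were snrpf (0.97), hnrnpa0l (0.97) and snrpe (0.83), and the lowest were prpf8 (-0.92) and prpf4ba (-0.88). The 7 core Sm genes had differences between 0.21 and 0.97. Of all 11971 genes 4249 had a difference above 0 and 7722 below. The control 24 hpf library, the highest of the 4 for snrpf and snrpe, enters this difference.

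Of the 6 other splicing lists rbm22, a gene of the catalytic steps, was past 2-fold higher in foxo3b MO at 48 hpf (1.42) and at 24 hpf (1.04), in a row that covers 2 genes. Its levels were 11.7 FPKM in foxo3b MO and 3.74 FPKM in control at 48 hpf, against 9.75 FPKM in foxo3b MO and 4.22 FPKM in control at 24 hpf. Past 2-fold at 48 hpf were also ybx1 (1.104) and cd2bp2 (1.05), higher in foxo3b MO, and rbfox1 (-1.03), pcbp3 (-1.31) and khdrbs2 (-1.52), lower. Of the 59 other regulators 1.7% were thus higher and 5.1% lower at 48 hpf. In the list of rbm22 4.3% were higher at each stage, and in that of cd2bp2 3.8% at 48 hpf. Over all genes 1.92% were higher and 3.67% lower at 48 hpf, and 3.12% were higher and 1.94% lower at 24 hpf. No other gene of these lists passed 2-fold between foxo3b MO and control.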

How the data were processed

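RNA of Gata1+ cells was sequenced in 4 libraries, 1 per group. Per the submitters' processing notes, TopHat and Cufflinks were run with Zv9; the versions, options and annotation behind them were not given in the sources used here. The authors deposited FPKM per gene with Zv9 loci, and these were not rescaled. FPKM carry no counts, so no counting interval is given.

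Log2 folds used a pseudocount of 1 FPKM and a floor of 1 FPKM on the mean. The members, role groups and lists were chosen with earlier results of these data known. Current symbols came from a RefSeq gene table of assembly GRCz12tu, used for names only, which held 13783 of the genes and all 68 splicing genes, 8 under another symbol. Of the splicing genes 7 share a locus with other genes. For 1 of the 68, counted in totals and medians, values of its own are not reported here. Named genes were, in each role group, the most abundant and those with the highest and lowest log2 folds among genes averaging at least 10 FPKM, with every splicing gene past 2-fold or listed at 0 and copies of named genes, and, in lists, genes past 2-fold in both stage comparisons or between foxo3b MO and control and the most abundant; splicing genes under 10 FPKM and others of the lists were named after their values were seen. Of the alternatives 8 were planned (pseudocounts, floors, scalings, genes at 0, shared loci) and 2 added after the data were seen (centring by level and locus width, members by current symbol). The software was Python 3.11.15 with numpy 2.4.6, pandas 2.3.3 and matplotlib 3.10.9.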

Additional observations from a re-analysis of the deposited data

Results flagged for a closer look

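Log2 folds of foxo3b MO over control had opposite signs at the 2 stages and lay at least 2-fold apart in 10 splicing genes and list genes. Without the condition on sign, the difference was past 2-fold higher in 2.95% of all genes and lower in 8.97%. The share of all genes that meets both conditions was not computed, so the 10 cannot be set against it. With 1 library per group the difference was not tested. Higher at 48 hpf than at 24 hpf, as the log2 fold at 48 hpf minus that at 24 hpf, were cd2bp2 (1.38), ybx1 (1.27), sf3b5 (1.104) and dnajc8 (1.04). The cold shock domain gene ybx1 stood at 1851 FPKM in foxo3b MO and 861 FPKM in control at 48 hpf, against 1325 FPKM in foxo3b MO and 1487 FPKM in control at 24 hpf. Lower were pcbp3 (-1.85), mbnl3 (-1.52), rbfox1 (-1.21), igf2bp3 (-1.15), celf2 (-1.05) and rbm24b (-1.05). The row of rbm24b covers 9 genes, and mbnl3 stood between 0.651 and 2.63 FPKM in all libraries. At 24 hpf pcbp3 was near 0, at 0.534 FPKM in foxo3b MO and 0.0598 FPKM in control, so its sign there is uncertain.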

How the results depend on the processing

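The stage comparison kept its direction under all 10 alternatives: between 48 hpf and 24 hpf the median log2 fold of the splicing genes stayed below 0 and the count past 2-fold within 1.5 times. Only the scalings and the centring could have brought that median above 0. A pseudocount keeps the sign of each log2 fold, and the other settings add or drop too few genes. Median-ratio scaling moved that median to -0.77 in control. The foxo3b MO comparisons moved with the scale. Equal totals gave medians of 0.81 at 48 hpf and 0.61 at 24 hpf and counts past 2-fold of 14 and 5. Over all genes that scale gave medians of 0.60 at 48 hpf and 0.65 at 24 hpf, with 16.7% and 19.5% past 2-fold higher. Median-ratio scaling gave a median of -0.14 at 24 hpf, beside -0.01 over all genes, and a count of 4. The median difference between stages was 0.33 on median-ratio scaling and 0.21 on equal totals. With a pseudocount of 5 FPKM the count past 2-fold was 1 at 48 hpf and 0 at 24 hpf, and with a floor of 5 FPKM it was 0 at 24 hpf. Leaving out genes that share a locus, or centring by level and locus width, left 1 gene at 48 hpf. Of the values of single genes past 2-fold, 426 still passed under an alternative, 18 did not, and none changed sign. Settings of the floor, of genes left out and of current symbols leave a log2 fold as it is, so passing there was fixed in advance. A pseudocount of 0.1 FPKM can only enlarge these log2 folds, so all 45 were bound to pass there too. The settings that follow could have failed. With a pseudocount of 5 FPKM 40 passed and 5 did not, and with centring also 40 and 5. On equal totals 39 passed and 6 did not, and on median-ratio scaling 43 and 2. In the stage comparison of foxo3b MO, hnrnpk, sf3a2, sfrs3a and u2af2b fell short of 2-fold on equal totals, which left 14 genes lower, and in control lsm14ab and srsf2a did so with a pseudocount of 5 FPKM. No paired analysis was possible because each group has 1 library, and for the same reason no library could be left out. Depth is known only as steps of single reads, so its limits cannot be given as intervals.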
